A study of Mus musculus with 1 sample.

Results

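The guidance genes encode the semaphorins, ephrins, SLITs and netrins, which are extracellular cues that steer axons and migrating cells, together with their receptors. They were taken from the array by gene symbol and comprised the semaphorins with their plexin and neuropilin receptors, the ephrins with the Eph receptors, the SLITs with the ROBO receptors, and the netrins with UNC5 receptors, Dcc and Neo1. The rule left out 1 Eph receptor. It found 70 of 18193 genes that had a probe set with a single gene symbol, and these 70 genes had 161 probe sets. Ephb2 was not analysed here.

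The data were 1 Affymetrix mouse array. The RNA was total RNA of wild-type mice at an age of 3 months, taken from cells of the ovarian surface epithelium, and the labels name no treatment. The series compared 3 genotypes by its design text, and the wild-type sample alone was analysed here. No comparison between genotypes was therefore made, no value has a replicate error, and no test is given. The sources used here do not say whether the RNA came from 1 mouse or from a pool.

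Guidance cues were first described in the nervous system, where they attract or repel growing axons. They also act in epithelia, mesothelia and vessels, where they set cell boundaries, adhesion and movement through the actin cytoskeleton. The ovarian surface epithelium is a mesothelial-type layer that is opened and closed again at each ovulation. Cues and receptors fall into secreted ligands, such as class 3 semaphorins, SLITs and netrins, and membrane-bound ligands that need cell contact, such as ephrins.

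The background limit was an intensity of 46.5, the 95th percentile of 126 probe sets for sensory receptor and keratin-associated protein genes not expected in ovary. A gene was called above background when its brightest probe set exceeded this limit, and is otherwise said to be at background. Intensities are linear, and those of different probe sets depend on probe affinity, so genes were not ranked by level. The SD between probe sets of a gene is a spread over probes and not a replicate error.

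The label of the preparation was checked against markers. All 11 markers of mesothelium were above background, among them Krt7 at 8204, Krt8 at 3172 to 4573 and Krt18 at 3377. The same limit was passed by 62.8% of all named genes. Of other cell types, 7 of 8 fibroblast markers, 7 of 8 smooth muscle markers and 6 of 8 macrophage markers were above the limit. The fibroblast markers Col1a1, Col1a2 and Col3a1 had 8290, 29972 and 22640 on their brightest probe sets. Acta2, Tagln and Myh11 of smooth muscle had 23141, 22357 and 764. Of the macrophage markers, Csf1r, Adgre1 and Cd68 had 527, 47 and 334 on their brightest probe sets, with Adgre1 at the limit. C1qa, C1qb and Cd14 had 244, 361 and 227, while Aif1 and Fcgr1 were at background with at most 27 and 38. The counts were 3 of 10 for endothelium, 1 of 4 for lymphocytes, 2 of 7 for neurons, 2 of 3 measured for glia, 3 of 4 measured for granulosa cells, 3 of 4 measured for theca and luteal cells and 0 of 6 for oocytes. Whether the preparation was a mixture or a single cell type carried several of these transcripts was not tested. A transcript can therefore not be assigned to a cell type, and fewer cells of a type cannot be told apart from less RNA per cell.

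Of the 70 guidance genes 53, or 75.7%, were above background, against 62.8% of all named genes. Genes with more probe sets pass more often, and all genes weighted to the same numbers of probe sets gave 69.3%. At the stricter 99th percentile of background, 39 of 70 guidance genes (55.7%) and 55.3% of all genes passed, so the families as a whole were near the background share. Ligands were above background in 31 of 37 cases (83.8%, against 70.4% of all genes with the same numbers of probe sets), and receptors in 22 of 33 (66.7%, against 68.0%). Of the 31 ligand calls 10 lay within a factor of 2 of the limit, and at the 99th percentile 21 of 37 ligands (56.8%) and 18 of 33 receptors (54.5%) passed, both near the 55.3% of all genes. A higher share of ligands than of receptors was seen in the ephrin and SLIT systems. It was not seen in the semaphorin system (17 of 20 ligands and 10 of 11 receptors) or the netrin system (3 of 6 each). The netrin ligands were counted with the membrane-anchored netrin-G genes Ntng1 and Ntng2, both at background.

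**Figure D1:**
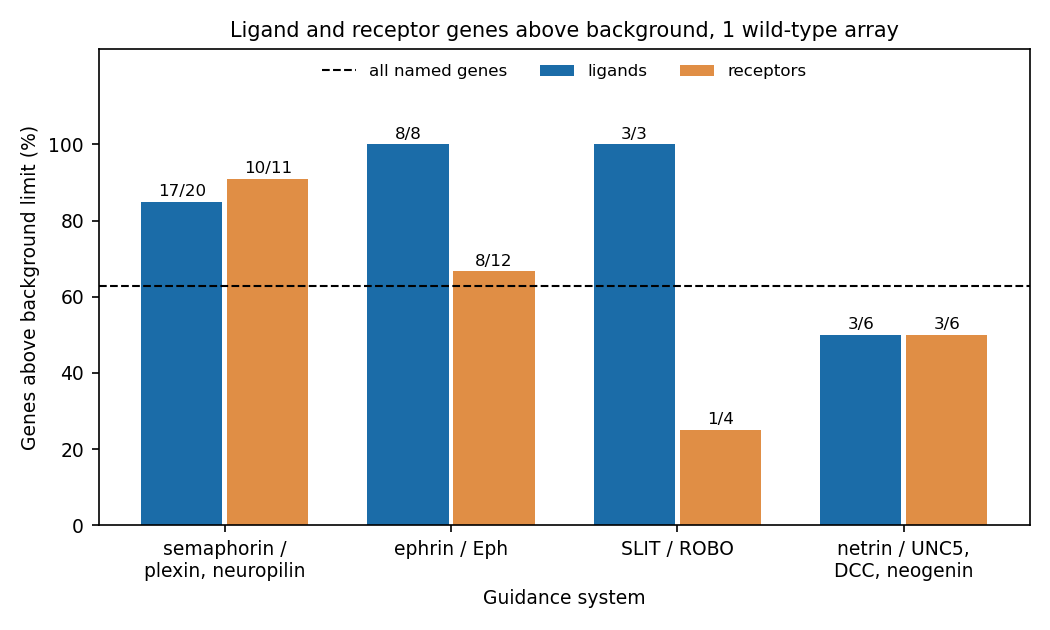
Bars give the percentage of ligand (blue) and receptor (orange) genes above the background limit in each guidance system on 1 array, with the counts above the bars, and the dashed line is the 62.8% of all named genes. All 8 ephrins and all 3 SLITs were above the limit, whereas 1 of 4 ROBO receptors was.

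SLIT ligands were above background while most of their receptors were not. Together 4 of 7 (57.1%) passed, against 64.5% of all genes weighted to the same numbers of probe sets. At the 99th percentile limit 3 of 7 (42.9%) passed, against 55.3% of all genes. SLITs are large secreted proteins that repel cells through ROBO receptors. Slit2 had intensities of 2127, 35 and 26 on its 3 probe sets, so its call rests on 1 of them. Slit3 had 857 on its only probe set. Slit1, described mainly in the nervous system, had 56 and 34, which is close to the limit.

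The classical SLIT receptors were at background on every probe set. For Robo2 this rests on 1 probe set, and Slit2, called above background, also had probe sets at 35 and 26. A single value at background therefore does not show that a transcript was absent. Robo1 had 21, 12 and 10, Robo2 had 10 on 1 probe set, and Robo3, which modulates SLIT signalling in commissural axons, had 22 and 21. Robo4, a divergent member known from endothelium that binds Unc5b, had 269. Pecam1 and Cdh5, defining junction genes of endothelium, were at 14 and at most 23. The endothelial markers Tek, Tie1, Emcn, Vwf and Cldn5 were also at background, with 21, 13, 11, 11 and 24. Kdr, Egfl7 and Esam, the other endothelial markers, passed the limit with 1813, at most 212 and 1785. The part of endothelial cells in the Robo4 value was not tested. Slit2, Slit3 and Robo4 stayed above the limit, and Robo1, Robo2 and Robo3 below it, under all 5 alternative limits.

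**Figure D2:**
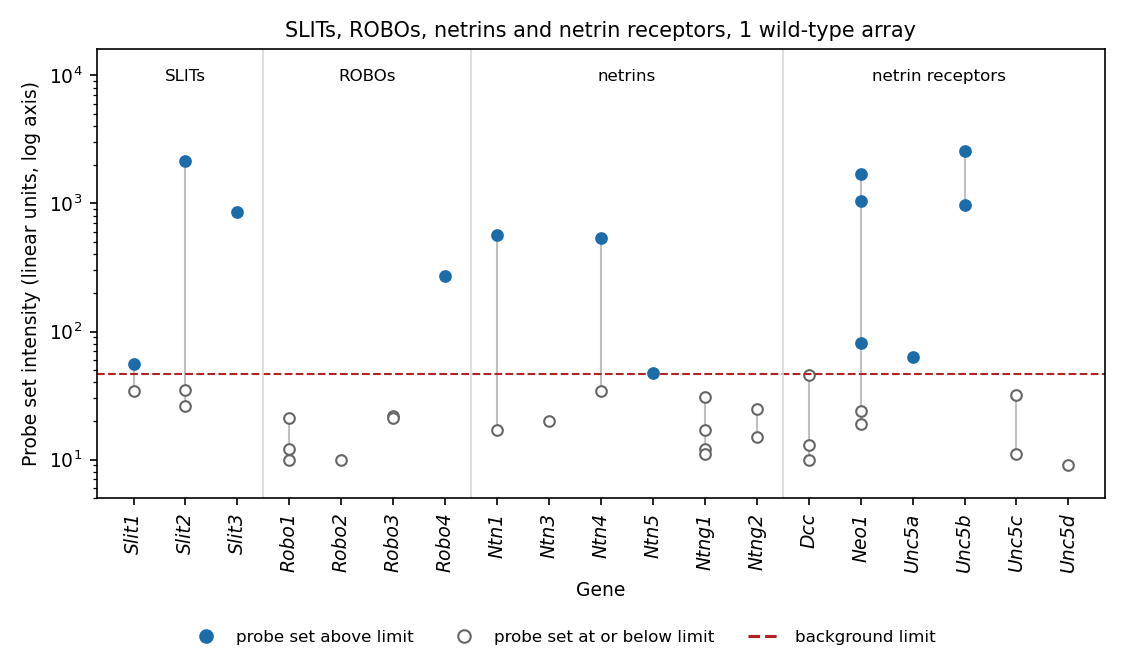
Each point is the intensity of 1 probe set (log axis) on 1 array for the SLIT, ROBO, netrin and netrin receptor genes, filled where it exceeds the background limit of 46.5 (dashed line) and open otherwise, with a line joining the probe sets of a gene. All 6 probe sets of Robo1, Robo2 and Robo3 lie at 22 or below, whereas Robo4 lies at 269.

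Promoters of 3 of these genes are shown for their content of CpG, the dinucleotide whose clusters mark many promoters of widely expressed genes. The sequences below are the 250 bases before the RefSeq start on build GRCm38.p6, read 5′ to 3′ on the gene's strand, with each CG in capitals. They are a CpG-rich ligand above the limit, a receptor at background and a CpG-poor receptor above the limit. Slit2 lies at chr5:47982905-47983154 on the plus strand, Robo1 at chr16:72662899-72663148 on the plus strand and Robo4 at chr9:37401722-37401971 on the plus strand. They hold 25, 11 and 2 CG.
Slit2: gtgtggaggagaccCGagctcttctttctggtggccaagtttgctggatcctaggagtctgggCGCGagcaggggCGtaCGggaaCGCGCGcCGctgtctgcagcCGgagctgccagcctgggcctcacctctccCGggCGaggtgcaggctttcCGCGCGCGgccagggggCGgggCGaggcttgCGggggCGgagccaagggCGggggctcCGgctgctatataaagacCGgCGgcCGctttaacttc
Robo1: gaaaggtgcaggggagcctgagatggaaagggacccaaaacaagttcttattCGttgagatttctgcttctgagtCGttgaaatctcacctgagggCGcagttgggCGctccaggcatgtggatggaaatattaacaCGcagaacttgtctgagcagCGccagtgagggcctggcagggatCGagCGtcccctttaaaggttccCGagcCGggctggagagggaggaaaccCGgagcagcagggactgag
Robo4: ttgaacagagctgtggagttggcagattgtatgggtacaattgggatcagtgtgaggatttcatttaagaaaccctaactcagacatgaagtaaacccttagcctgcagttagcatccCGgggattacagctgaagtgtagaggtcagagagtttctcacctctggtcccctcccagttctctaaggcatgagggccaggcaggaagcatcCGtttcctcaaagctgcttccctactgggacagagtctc

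Netrin and netrin receptor genes were divided evenly, with 6 of 12 (50%) above background. Of all genes weighted to the same numbers of probe sets 67.5% passed. At the 99th percentile limit 4 of 12 (33.3%) passed, against 55.3% of all genes. Netrins are secreted proteins related to laminins that attract cells through Dcc and repel them through UNC5 receptors. Of 6 genes named as netrins 3 were above background, and 3 of 6 netrin receptors were. Ntn1, the classical netrin, had 571 and 17, and Ntn4, a netrin of basement membranes, had 535 and 34. For both genes 1 of 2 probe sets passed. Ntn5 had 47, at the limit of 46.5. Ntn3 had 20, and Ntng1 and Ntng2, which encode membrane-anchored netrin-G proteins of axons, had at most 31 and 25.

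Among the netrin receptors, Unc5b, Neo1 and Unc5a were above background. Unc5b had 2581 and 965, both above the limit. Neo1 encodes neogenin, the close relative of Dcc that also binds repulsive guidance molecules, and had 1695, 1041 and 82 above the limit and 24 and 19 below it. The 1695 and 82 came from probe sets whose identifiers mark probes shared between transcripts or genes, while the 1041 did not. Unc5a had 63, close to the limit.

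Dcc, the attractive receptor, had 46, 13 and 10 and so fell just short of the limit. Its call changed under 3 of the 5 alternative limits, and a value so near the limit does not separate a low level from background. Unc5c had 32 and 11, and Unc5d had 9. Ntn1 was thus above background together with Neo1, Unc5a and Unc5b.

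All 8 ephrin genes were above background. Ephrins and Eph receptors together passed in 16 of 20 cases (80%), against 66.1% of all genes weighted to the same numbers of probe sets. At the 99th percentile limit 13 of 20 (65%) passed, against 55.3% of all genes. Ephrins are membrane-bound ligands, of which the A class is held by a lipid anchor and the B class crosses the membrane and can signal back into its own cell. Efnb2, a B ephrin that marks arterial endothelium and also acts in epithelia, had 3626, 1979, 71 and 19, with 3 of 4 probe sets above the limit. Efnb1, whose gene is X-linked, had 698, 428 and 377, all above the limit. Efnb3 had 58, close to it.

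Of the A ephrins, Efna1 had 326 and 207, Efna2 had 371 and 107, and Efna4 had 138 on its only probe set. Both probe sets of Efna1 and of Efna2 passed. Efna5, a repellent of retinal axons, had 597 and 27, with its probe sets on opposite sides of the limit. Efna3 had 48 and 23, so its call rests on a value at the limit.

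EphB receptors were all above background and EphA receptors were divided. Eph receptors form the largest family of receptor tyrosine kinases and bind ephrins on neighbouring cells. The 4 measured EphB genes had 1 probe set each. Ephb4, the main receptor for Efnb2, had 459, and Ephb3 had 392. Ephb6, which lacks kinase activity, had 527, and Ephb1 had 101.

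Of 8 EphA genes 4 were above the limit. Epha1, found in many epithelia, had 193, 64 and 48, all above it. Epha3 had 230 on 1 of 4 probe sets and at most 22 on the others. Epha4, which binds ephrins of both classes, had 97 and 62 above the limit and 30, 30 and 9 below it.

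Epha7 had 60 and 48 above the limit and 24 and 13 below it, so all its values were near background or within it. Epha5, Epha6, Epha8 and Epha10 were at background, with at most 18, 11, 23 and 31. Epha5, Epha6 and Epha8 are known mainly from the nervous system. Of the 7 neuronal markers Tubb3 and Rbfox3 were above the limit, at 68 and at most 63, Rbfox3 on 1 of 3 probe sets. Both lay below the 99th percentile limit of 84.75 and the limit of 72.3 from genes restricted to other organs. Snap25, Syt1, Nefl, Nefm and Stmn2 were at background, with at most 9, 33, 10, 12 and 41.

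**Figure D3:**
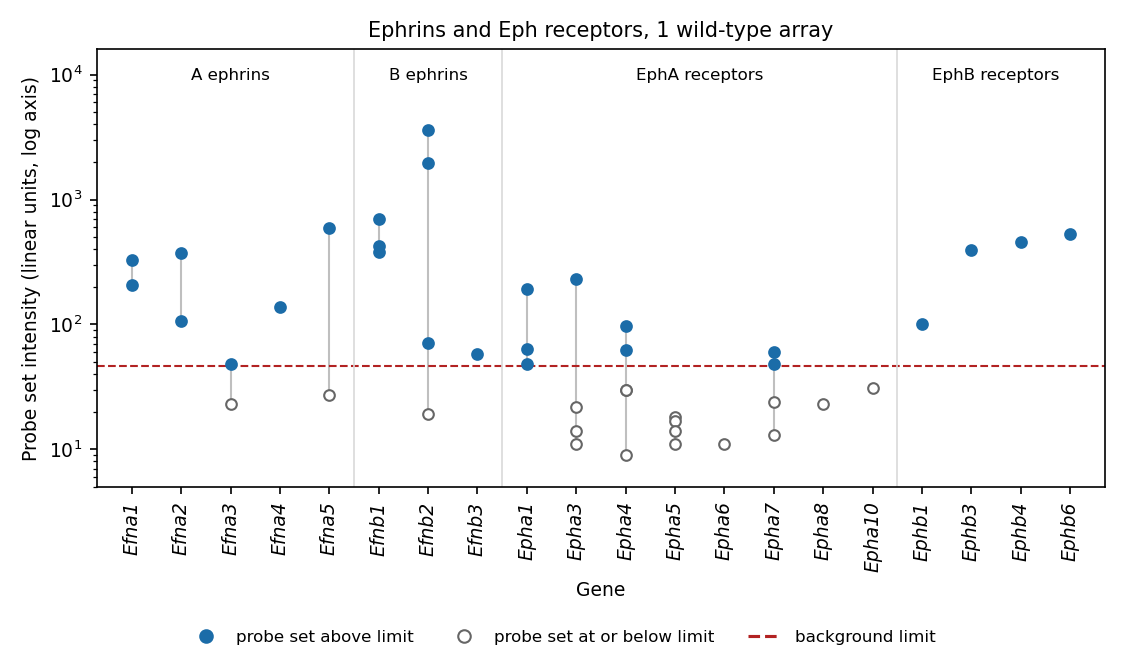
Each point is the intensity of 1 probe set (log axis) on 1 array for the ephrin and Eph receptor genes, filled above the background limit of 46.5 (dashed line) and open otherwise. Each of the 8 ephrins and the 4 EphB receptors has a filled point, while Epha5, Epha6, Epha8 and Epha10 have open points only.

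The promoter of Epha8 is shown because it was the most CpG-rich of the measured guidance promoters although the gene was at background. It holds 46 CG in the 250 bases before the RefSeq start, at chr4:136956817-136957066 on the minus strand of GRCm38.p6, with each CG in capitals.
Epha8: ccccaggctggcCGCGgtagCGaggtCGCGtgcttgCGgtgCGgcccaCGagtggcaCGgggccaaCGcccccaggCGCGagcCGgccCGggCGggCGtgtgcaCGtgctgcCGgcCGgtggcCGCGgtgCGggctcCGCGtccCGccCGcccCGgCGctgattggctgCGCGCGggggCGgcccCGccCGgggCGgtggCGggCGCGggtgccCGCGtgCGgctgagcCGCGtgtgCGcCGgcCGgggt

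Semaphorins and their receptors together passed in 27 of 31 cases (87.1%), against 73.1% of all genes weighted to the same numbers of probe sets. At the 99th percentile limit 19 of 31 (61.3%) passed, against 55.3% of all genes. Class 3 semaphorins, which are secreted, were above background in 6 of 7 cases. Sema3c, which binds both neuropilins, had 5866 and 368. Sema3f, a ligand of neuropilin-2, had 946, 636 and 298. Sema3d had 640 and 58. All probe sets of these 3 genes exceeded the limit.

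Sema3a, the classical repellent that acts through neuropilin-1, had 463 and 131 above the limit and 16 below it. Sema3e, which binds plexin D1 without a neuropilin, had 210, 173 and 116 above the limit and 45 just below it. Sema3b had 206 and 85 above the limit and 39 below it. Sema3g, known from endothelium, had 18 on its only probe set and was at background.

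Class 4 semaphorins span the membrane, and all 6 genes were above background, but 4 of them by less than a factor of 2. Sema4b had 935 and 45, and Sema4c, a ligand of plexin B2, had 286. Both genes were clear of the limit on their brightest probe set. Sema4a had 68 and 49, Sema4d, the plexin B1 ligand known from lymphocytes, had 59, 40 and 14, Sema4f had 58 and 14, and Sema4g had 59. These 4 fell to background at the 99th percentile limit. Of the 4 lymphocyte markers Ptprc, which encodes the common antigen of leukocytes, had 70 and 14, while Cd3e, Cd3d and Cd79a, parts of the antigen receptors of T and B cells, were at background with 46, 39 and 20.

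Of 7 genes of classes 5 to 7, 5 were above background. Sema6d, a transmembrane ligand of plexin A1, had 1502 on 1 of 4 probe sets and at most 21 on the others. Sema6c had 166 and 80 above the limit and 38 below it, and its 166 and 80 came from probe sets whose identifiers mark several transcripts of the same gene. Sema5a, which carries thrombospondin repeats, had 128 and 60 above the limit and 15 and 13 below it.

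Sema7a, a lipid-anchored semaphorin, had 82 and 21. Sema6a had 65, 21 and 16, and its 65 came from a probe set marked in the same way. The calls of Sema6a and Sema6c ended without such probe sets. Sema6b had 42, just below the limit, and Sema5b had 27 and 14. The 5 genes with a call in these classes each had at least 1 probe set at background, so none was called on every probe set.

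Semaphorin receptors were above background in 10 of 11 cases. Plexins are the signalling receptors and switch off small GTPases of the RAS family, and neuropilins are co-receptors that hold class 3 semaphorins. Nrp1 had 772, 360 and 198 above the limit and 37 below it. Nrp2 had 314, 227 and 115 above the limit and 22 below it. Both neuropilins thus passed on 3 of 4 probe sets.

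All 4 A plexins passed. Plxna4 had 615 and 280, Plxna1 had 389 and 34, and Plxna3 had 117 and 27. Plxna2 had 236, 108 and 79 above the limit and 21 below it. Plxna4 was the only A plexin with every probe set above the limit.

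Among the B plexins, Plxnb1 and Plxnb2 bind class 4 semaphorins. Plxnb2 had 2250 on its only probe set, and Plxnb1 had 629 and 614. Plxnb3 had 69 and 52, close to the limit. Plxnd1, the receptor of Sema3e, had 83. Plxnc1, the receptor of Sema7a, had 6 probe sets between 10 and 29 and was the only plexin at background.

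**Figure D4:**
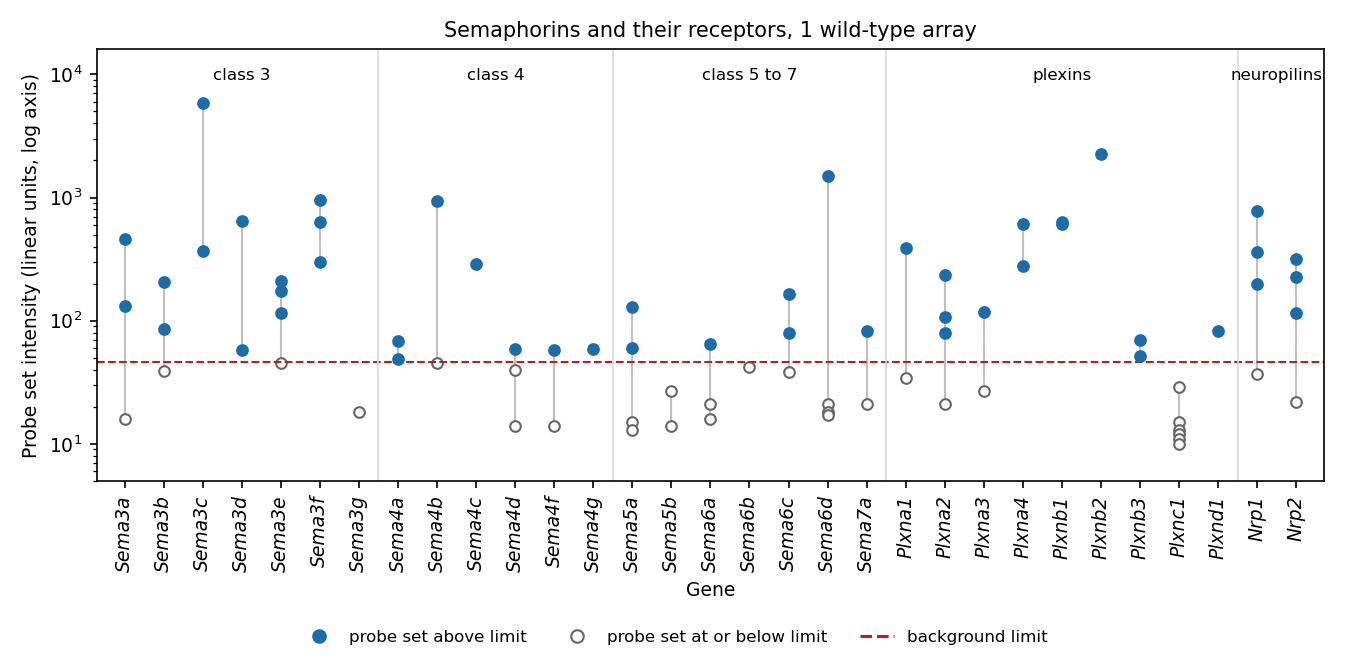
Each point is the intensity of 1 probe set (log axis) on 1 array for the semaphorin, plexin and neuropilin genes, filled above the background limit of 46.5 (dashed line) and open otherwise. Sema3g, Sema5b, Sema6b and Plxnc1 have open points only, and the 6 probe sets of Plxnc1 lie between 10 and 29.

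Ligands and receptors were set side by side for 39 pairs with known binding, of which 37 had both genes measured. Both genes were above background in 23 pairs, the ligand alone in 12 and the receptor alone in 2, and no pair had both genes at background. Among all guidance genes 83.8% of ligands and 66.7% of receptors passed, which by itself gives more ligand-only than receptor-only pairs. Whether the pair counts differ from what these shares give was not tested. The SLIT pairs with Robo1 and Robo2 made up 6 of the 12 ligand-only pairs. The others were Sema7a with Plxnc1, Ntn1 with Dcc, Unc5c and Unc5d, and Efna5 and Efna2 with Epha5. The receptor-only pairs were Sema3g with Nrp2 and Sema6b with Plxna4. The number of pairs with both genes above background fell to 13 at the 99th percentile limit. Of the 23 ligands above background in measured pairs, 18 had at least 1 listed receptor above it. This count depends on the list, in which Efna2 was set against Epha5 alone and Sema7a against Plxnc1 alone.

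Genes that act beside or behind these receptors were above background in 60 of 72 measured cases (83.3%), against 62.8% of all named genes and 74.8% of all genes weighted to the same numbers of probe sets. With the lowest probe set of a gene, 28 of 72 (38.9%) passed, against 39.7% of all genes. All 12 genes acting downstream of ROBO receptors passed, although Robo1, Robo2 and Robo3 did not. Of all named genes, 71.8% of those with 2 probe sets, 82.9% with 3 and 88.0% with 4 passed. No weighted share was computed for any single list of partners, so the counts of these lists are not read as results about a pathway. Among the ROBO transducers, the GTPase-activating proteins that bind ROBO tails, Srgap1, Srgap2 and Srgap3, had 156, 704 and 280 on their brightest probe sets. The ROBO transducers also act in other pathways.

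Of 17 genes acting behind plexins 15 passed. Rnd1 and Rras, small GTPases that plexins bind, had 435 and 3297, and Mical1, an actin-oxidising enzyme, had 396 and 299. Crmp1 and Dpysl4, members of the collapsin response mediator family, were at background, with 28 and at most 23. All 8 measured netrin transducers passed, with Trio, an exchange factor, at 1464 on its brightest probe set, Dock1, another exchange factor, at 590, and Elmo1, the partner of Dock1, at 97.

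Eph transducers were divided, with 10 of 15 above background. Vav2, an exchange factor, had 506 on its brightest probe set. Ngef and Arhgef15, exchange factors that bind Eph receptors, were at background with 22 and at most 24. Chn1, Chn2 and Grip1, the others below the limit, had at most 22, 35 and 42, and were named after their values were seen.

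Co-receptors and further ligands passed in 10 of 15 cases. L1cam, an adhesion molecule that joins Nrp1 in the Sema3a receptor, had 55 and 13. Chl1 and Nrcam, its relatives, were at background with at most 15 each. Rgma, Lrrc4c and Cd72, the others at background, had 39, at most 17 and 45, and were named after their values were seen. All 5 measured processing proteases passed, with Furin, which cleaves class 3 semaphorins, at 456, Pcsk5, a related convertase, at 328 on its brightest probe set, and Adam10, which sheds ephrins, at 2905.

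Probe sets of the same guidance gene often gave different calls. Of the 48 guidance genes with several probe sets 27 (56.2%) had probe sets on both sides of the limit, against 46.7% of all such genes. All probe sets passed for 12 (25%), against 32.1% of all genes with several. On the log2 scale, the SD between the probe sets of a gene had a median of 1.13 for guidance genes and 1.39 for all genes. Of the 161 probe sets 86 (53.4%) were above the limit, against 55.1% of all named probe sets. The brightest probe set exceeded 10 times the limit in 19 guidance genes (27.1%), against 29.1% of all genes.

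At the main limit the median CpG count of guidance promoters was about the same above and below it, whereas that of all coding genes was lower at background. This difference was not tested. CG was counted in the 250 bases before the first RefSeq start, on GRCm38.p6, for coding genes on chromosomes where the promoter table held at least 75% of them. This gave 56 of 63 guidance genes and 12305 of 14535 coding genes. CG reads the same on both strands, and 97% of the 12305 promoters hold at least 1. Among all coding genes the median was 16 CG above the limit and 5 at background. Among guidance genes it was 16 (range 1 to 45, n = 41 genes) above the limit and 17 (range 4 to 46, n = 15 genes) at background. Of the latter, Epha10, Ntng1, Plxnc1, Sema5b, Sema6b and Unc5c, with 17, 25, 22, 19, 20 and 23 CG, passed under some other limits. The others, Epha5, Epha6, Epha8, Ntn3, Ntng2, Robo1, Robo2, Robo3 and Sema3g, had 20, 15, 46, 11, 4, 11, 8, 12 and 8. The median of 17 thus rests in part on calls that change with the limit.

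Of the 15 guidance genes at background with a promoter, 12 (80%) had 10 CG or more, against 30.9% of all coding genes at background. Above the limit the shares were 70.7% and 75.7%. With the start that has the most CG in each gene, an alternative added with the values known, the medians for guidance genes were 16 and 17 and those for all coding genes 17 and 5. A CG count is a property of the sequence and no measure of methylation or activity.

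**Figure D5:**
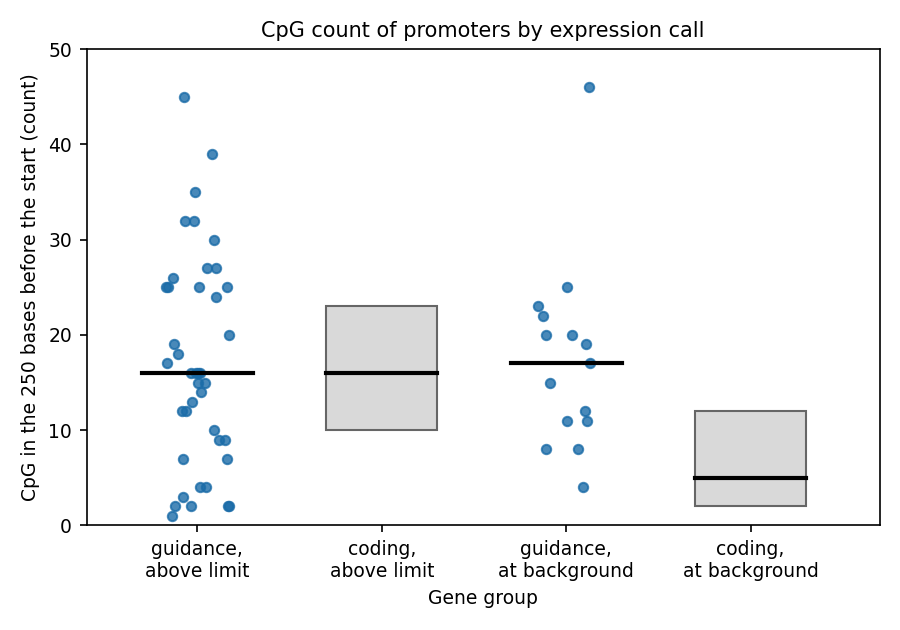
Points are the CG counts in the 250 bases before the start of 41 guidance genes above the limit and 15 at background, with black lines at their medians of 16 and 17. Grey boxes span the quartiles of all coding genes in the same class, with medians of 16 and 5, so that most guidance genes at background lie above the box of other genes at background. Some of these background calls changed under other limits.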

How the data were processed

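Biotin-labelled cRNA made from total RNA of the wild-type sample was measured on 1 Affymetrix array, per the labels' protocols. The deposited table gives 1 linear intensity for each of 45101 probe sets, all whole numbers from 6 to 32341. Per the submitters' processing notes the tools were affy and RMA (background correction, normalization across arrays, and a summary over the probes of each set). The sources used here do not state versions, the arrays normalized together or the step from log2 to whole linear numbers. RMA compresses differences between low intensities.

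Probe sets were named through the platform annotation. Of them 34945 had 1 symbol, 932 had several, 9160 had none and 64 were controls. No probe set with several symbols named a guidance gene, and the gene numbers of all 70 matched RefSeq symbols. Each gene took the level of its brightest probe set. The limit was the 95th percentile of 126 probe sets of 112 olfactory, vomeronasal and bitter taste receptor and keratin-associated protein genes, of which 7 passed. The alternatives were 5 other limits, the mean or the lowest probe set, and removal of probe sets with marked identifiers (a letter before the final suffix). Every guidance gene was named, with the first 3 measured genes of each partner list, up to 3 on the rarer side of the limit, and the markers that bear on a result. The members, lists and alternatives were chosen with earlier results of these data known. Arrays have no read depth, and 1 array sets the precision. Promoter sequences came from RefSeq (GRCm38.p6), for 60 of 70 genes, matched by symbol; no build is named for the probe sets. Values were computed with pandas 2.3.3 and NumPy 2.4.6 in Python 3.11.15 and drawn with matplotlib 3.10.9.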

Additional observations from a re-analysis of the deposited data

How the results depend on the processing

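Of 56 counts (7 counts, each under 8 alternatives), 47 stayed within 1.5 times the reported one. When each gene took its lowest probe set, 26 guidance genes (37.1%) were above the limit, against 39.7% of all genes. They were 11 of the semaphorin family, 10 ephrins and Eph receptors, 2 SLITs and ROBO receptors and 3 of the netrin family. In this setting 28 partner genes and 4 pairs passed. Pairs with both genes above the limit numbered 13 at the 99th percentile and 14 with genes restricted to other organs as background. Over the 5 alternative limits, which ran from 25.5 to 84.75, 39 to 60 guidance genes passed. These were 55.7% to 85.7%, against 55.3% to 73.2% of all genes. Of the 53 genes above background 39 kept that call under all 5 limits, and of the 17 at background 10 did. The 14 that lost it under at least 1 were Efna3, Efnb3, Epha7, Ntn5, Plxnb3, Plxnd1, Sema4a, Sema4d, Sema4f, Sema4g, Sema6a, Sema7a, Slit1 and Unc5a. The 7 that passed under at least 1 were Dcc, Epha10, Ntng1, Plxnc1, Sema5b, Sema6b and Unc5c. Sema3b, Efna4 and Ephb4 had marked probe sets only and gave no value without them. In that setting 49 of 67 guidance genes (73.1%) passed, against 59.2% of all genes. With no replicate, values near the limit cannot be separated from background. No paired analysis was possible because there is 1 sample.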

Other observations

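Of 9 guidance genes with fewer than 5 CG in the promoter window 8 (88.9%) were above background, against 29.9% of all 2707 such coding genes. This grouping was chosen after the values were seen, and no test was made. The 8 were Sema3a, Sema3d, Sema4a, Sema4d, Sema4f, Plxnb3, Ntn5 and Robo4, and the one at background was Ntng2. Sema4a has 4 RefSeq starts, and the start with the most CG holds 13, so with that start Sema4a leaves the group. Sema4a, Sema4d, Sema4f, Plxnb3 and Ntn5 lay within a factor of 2 of the limit and were among the calls lost at the 99th percentile. Sema3a, Sema3d and Robo4, at 463, 640 and 269 on their brightest probe sets, were not.

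Flrt2 and Flrt3 encode membrane proteins that bind UNC5 receptors. Flrt2 had 3010, 1447 and 238, all above background, and Flrt3 had 256 and 76. Unc5b was above background on both probe sets. Met, a receptor tyrosine kinase that associates with B plexins, had intensities of 977 and 20. These genes of the co-receptor list were named after their values were seen.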
